A study of Homo sapiens with 4 samples.

Results

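Open chromatin is not spread evenly along chromosomes. Promoters of neighbouring genes, alternative promoters of one gene, and enhancers that act on the same promoter can lie within a few kilobases of each other, so that several accessible sites form a group. CHD7, an ATP-dependent chromatin remodeller of the chromodomain helicase family, moves nucleosomes and is known to bind at enhancers and promoters. The groups described here are the densest runs of accessible sites in RKO cells, which derive from a human colon carcinoma. The question was how many sites of each group were still called as accessible when CHD7 was depleted.

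ATAC-seq, in which the Tn5 transposase cuts and tags accessible DNA, was performed on RKO cells stably infected with lentivirus. One group received a control virus and the other one with shCHD7-2, a hairpin that targets CHD7. Each group had 2 libraries with separate peak lists, only 1 hairpin was analysed here, and the labels do not say if replicates were separate cultures, so their spread may be technical. The CHD7 transcript was not measured in these files.

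Peaks of the 4 lists on chromosomes 1 to 22 and X were merged into 20450 regions when they shared at least 1 bp. A peak in both control lists was found in 8557 regions. Neighbouring regions among them were chained when the gap between them was 12.5 kb or less, and the members were the regions in chains of 3 or more. This gave 117 regions in 38 clusters, or 1.37% of those 8557 regions. A further 968 regions formed chains of 2, here called pairs, and 7472 were isolated. Coordinates are hg19.

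The clusters were short. Of the 38, 36 held 3 regions, 1 held 4 and 1 held 5. Their span, from the start of the first region to the end of the last, ran from 1195 to 32513 bp with a median of 15443.5 bp. All spans together covered 575 kb. The 79 gaps within clusters had a median of 6928 bp and ran from 37 to 12324 bp, against a median of 141.5 kb between all neighbouring control regions. Regions themselves filled from 6.17% to 67.9% of a span, with a median of 13.9%. These values follow from the rule and are given as a description. At the limit of the rule, the longest gaps that still joined a cluster were 12324 bp on chromosome 9 and 12301 bp on chromosome 2. The nearest chain that the rule left out was on chromosome 8 from 13210753 to 13230572, where a gap of 12708 bp separated 1 region from a pair. Of those 3 regions, 1 had a peak in both shCHD7-2 lists and 1 in neither.

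**Figure D1:**
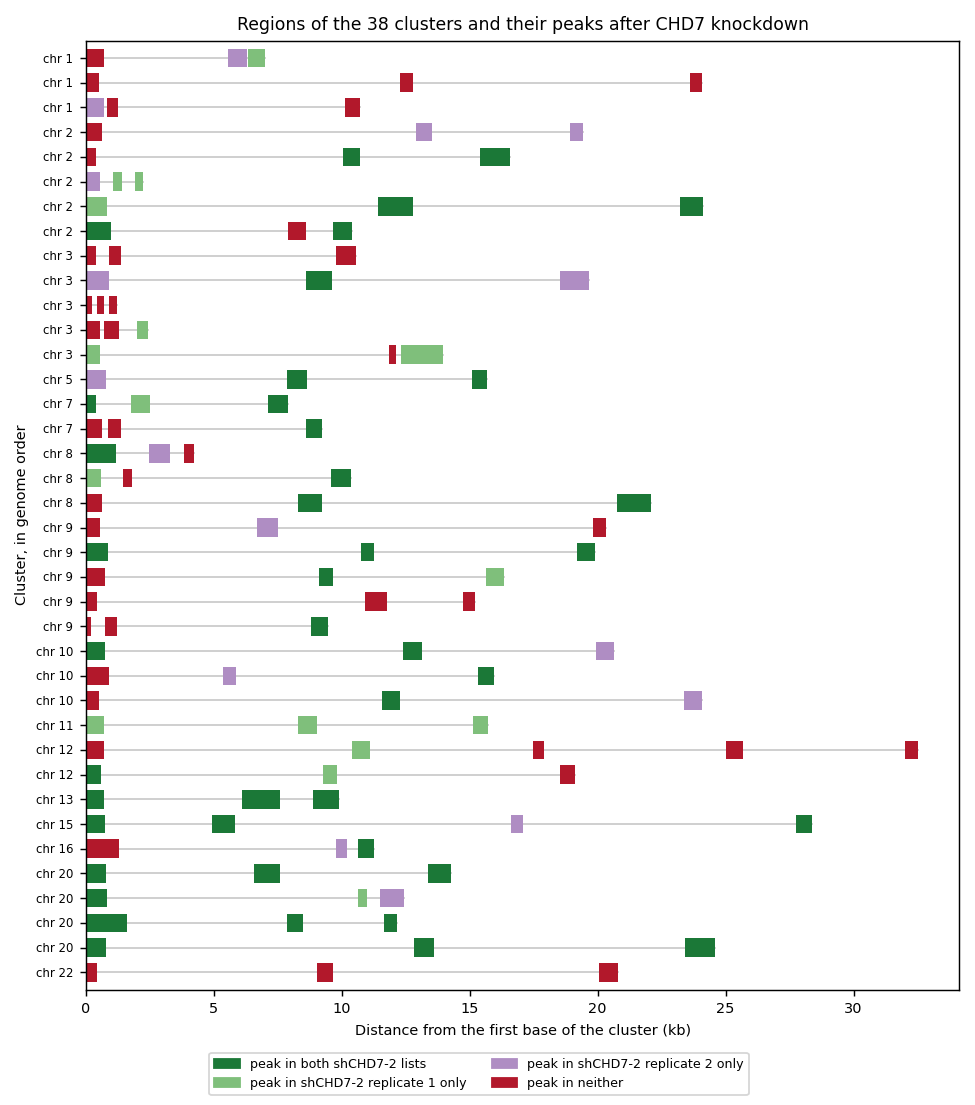
Each row is one of the 38 clusters in genome order, and each bar is a region drawn to scale against the distance in kb from the first base of the cluster. Bar colour gives the shCHD7-2 lists that hold a peak there. In 5 clusters every region has a peak in both lists and in 5 no region has one in either, while 19 clusters hold regions with no shCHD7-2 peak beside regions with one, and in the other 9 each region has a peak in at least 1 list.

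With the full lists, clustered regions were called in shCHD7-2 cells about as often as other control regions. A peak was present in both shCHD7-2 lists at 43 of the 117 regions (36.8%, 95% Wilson interval 28.6% to 45.8%), against 39.7% of all 8557 control regions. No peak was listed in either shCHD7-2 library at 42 regions (35.9%, interval 27.8% to 44.9%), which are called lost below, against 34.4% of all control regions. The remaining members were split evenly, with 16 called in shCHD7-2 replicate 1 only and 16 in replicate 2 only. Each shCHD7-2 list therefore lacked 58 of the 117 regions (49.6%). Among all control regions, 50.5% lacked a peak in shCHD7-2 replicate 1 and 44.2% in replicate 2. This closeness varied with the settings, each of which formed its clusters anew. The shCHD7-2 lists are shorter, and equal lengths drop the weakest control peaks by design. A cause of the change was not tested. With equal list lengths 33 regions in 11 clusters remained, and 12.1% of them were lost. The difference from other control regions was then -11.6 percentage points, against 1.48 with the full lists. At a -log10 q of at least 5, which also left 33 regions in 11 clusters, it was -13.1 points. These values rest on few regions and have no interval, so a change of direction is not established. The intervals cover counting error over regions and no variation between cultures. No test is given, because the members were chosen on the control lists. Signal below the calling threshold is not listed, so loss here means the absence of a listed peak and not closed chromatin.

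Between isolated regions, pairs and clusters the share lost did not rise steadily. It was 33.6% of the 7472 isolated regions, 41.0% of the 968 in pairs and 35.9% of the 117 in clusters. Regions in pairs were also somewhat weaker in the control lists, with a median percentile of 57.6 against 63.6 for isolated regions. The percentile ranks a peak by its -log10 p within its own list, 100 being the strongest, and is averaged over both control lists. Isolated regions of the same control rank would give 37.2% lost for the pairs and 35.9% for the clusters. Summed over ranks, the number lost in clusters thus equalled that of isolated regions of like strength, 42 against 42.0 computed. This sum does not show a match at each rank.

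**Figure D2:**
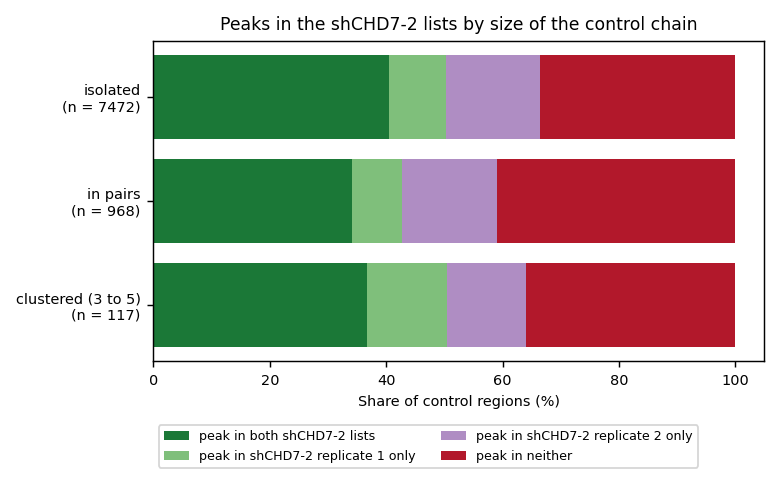
Horizontal bars give the share in % of isolated, paired and clustered control regions by the shCHD7-2 lists that hold a peak there. Clustered regions lie between the other classes in the share with a peak in neither list, 35.9% against 33.6% and 41.0%.

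Strength in control cells separated kept from lost members. The 43 members kept in both shCHD7-2 lists had a median control percentile of 81.3, and the 42 lost members had a median of 40.9. At their control summits, kept members held medians of 25 and 22 reads in the 2 replicates, and lost members held 16 and 14. Kept members were also wider, with a median of 785 bp against 514 bp. The ranges overlapped widely: kept members reached down to a percentile of 19.3 and lost members up to 96.3. In the weaker 5 of 10 strata of control rank, 37 of 62 clustered regions were lost (59.7%, interval 47.3% to 71.0%), against 53.5% of the other control regions there. In the stronger 5 strata, 5 of 55 were lost (9.09%, interval 3.95% to 19.6%), against 15.4%. Within a cluster, the strongest region was kept in 19 of 38 clusters and lost in 9, and the weakest was kept in 11 and lost in 17.

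**Figure D3:**
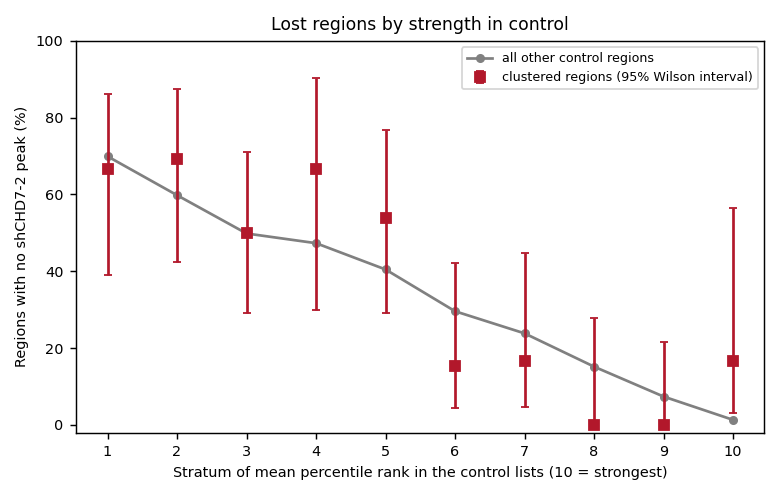
The share in % of regions with no shCHD7-2 peak is plotted against 10 strata of mean percentile rank in the control lists. Squares are clustered regions with 95% Wilson intervals, from 6 to 18 regions per stratum, and the line joins all other control regions. Both are high in the weakest stratum, 66.7% and 69.9%, and low in stratum 9, 0% and 7.36%; in stratum 10, 1 of 6 clustered regions was lost.

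All regions were kept in both shCHD7-2 lists in 5 clusters, and all were lost in 5. Lost regions lay beside regions that were not lost in 19 clusters. In the other 9 no region was lost, but at least 1 was called in a single shCHD7-2 library. At least 1 region had a peak in some shCHD7-2 list in 33 clusters. At least 3 regions remained in 9 clusters in shCHD7-2 replicate 1, in 9 clusters in replicate 2, and in both lists at once in 6. Of the 79 neighbouring pairs of regions inside clusters, 16 were both lost, 39 had neither lost and 24 had 1 lost. Neighbours thus shared their status in 69.6% of cases, against 59.3% of the 484 pairs and 63.5% of 7971 neighbours farther than 12.5 kb apart. The share lost in these 3 groups of neighbours also differed, at 35.4%, 41.0% and 34.0%, and the agreement was not adjusted for it. Inner regions of a cluster count more than once, so the 79 are not independent. Outer and inner regions of a cluster were lost alike, 28 of 76 (36.8%) and 14 of 41 (34.1%).

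The cluster with the most regions was on chromosome 12 from 66025448 to 66057960, where 5 regions lay within 32513 bp. It was also almost entirely lost. From left to right, the summits held 10, 24, 16, 16 and 9 reads in control replicate 1. In control replicate 2 they held 14, 20, 12, 16 and 6 reads. The last of these counts is uncertain, because a higher read number meets the same fold enrichment and p value. The strongest region, from 66035842 to 66036541, was called in shCHD7-2 replicate 1 with 15 reads. No other region of this cluster had a peak in either shCHD7-2 list. Chromosome 12 was a chromosome of frequent loss outside clusters too, with 47.4% of its other control regions lost.

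The cluster of 4 regions was on chromosome 15 from 93347003 to 93375375, and most of it stayed called. Its summits held 9, 27, 11 and 14 reads in control replicate 1 and 16, 25, 16 and 9 reads in control replicate 2. All 4 regions were called in shCHD7-2 replicate 2, with 21, 24, 21 and 16 reads. In shCHD7-2 replicate 1 the third region had no peak, and the others held 15, 14 and 10 reads. This was a cluster of moderate rank, with a mean percentile of 53.0, and none of its regions was lost.

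The remaining clusters held 3 regions, and the strongest of them by mean percentile was on chromosome 13 from 111358371 to 111368262. It stood at a mean percentile of 90.1. Its regions held 29, 45 and 50 reads in control replicate 1 and 27, 42 and 42 reads in control replicate 2. All stayed called, with 15, 23 and 20 reads in shCHD7-2 replicate 1 and 17, 28 and 30 reads in replicate 2. At each of its regions both shCHD7-2 summits were below both control summits.

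Almost as strong, with the same mean percentile to 3 digits, was a cluster on chromosome 20 from 5093412 to 5107671. Its regions held 27, 30 and 35 reads in control replicate 1, and 23, 27 and 24 in control replicate 2. The shCHD7-2 lists gave 13, 15 and 14 reads in replicate 1 and 16, 22 and 16 reads in replicate 2. Every region was kept, and again both shCHD7-2 summits lay below both control summits at each. A second fully kept cluster on the same chromosome, from 23330620 to 23342772, held 30, 33 and 22 reads in control replicate 1 and 37, 34 and 23 in control replicate 2. Here shCHD7-2 replicate 1 gave 23, 21 and 23 reads and replicate 2 gave 34, 23 and 20 reads. The groups overlapped at its first and last regions.

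In other strong clusters some regions lacked a peak in 1 or both shCHD7-2 lists. On chromosome 10 from 17242909 to 17258846, the first region held 34 and 41 reads in control replicates 1 and 2 and had no shCHD7-2 peak at all, although it stood at a percentile of 96.3. Its neighbour 4451 bp away held 26 and 20 reads in control and was called in shCHD7-2 replicate 2 with 14 reads. The last region, 9431 bp further on, held 35 and 26 reads in control and was kept with 15 and 16 reads in shCHD7-2 replicates 1 and 2. Within this cluster a strong region without a shCHD7-2 peak thus lay a few kilobases from regions that had one.

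On chromosome 3 from 42623151 to 42642828, the regions held 36, 24 and 19 reads in control replicate 1 and 25, 21 and 17 in control replicate 2. Only the middle region was called in both shCHD7-2 lists, with 13 and 14 reads. The outer regions were called in shCHD7-2 replicate 2, with 19 and 12 reads, and not in replicate 1. On chromosome 5 from 140090372 to 140106036, control replicate 1 gave 21, 23 and 22 reads and control replicate 2 gave 19, 19 and 17 reads. The first region was called in shCHD7-2 replicate 2 alone with 15 reads. The other regions were kept with 12 and 11 reads in replicate 1 and with 14 and 15 reads in replicate 2. On chromosome 7 from 25894619 to 25902521, the last region held 45 and 32 reads in control and 31 and 35 reads in the shCHD7-2 lists, so the groups overlapped. It was the member with the highest control percentile, 97.8. The first region was kept with 15 and 18 reads against 26 and 21 in control, and the middle one was called in shCHD7-2 replicate 1 alone.

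**Figure D4:**
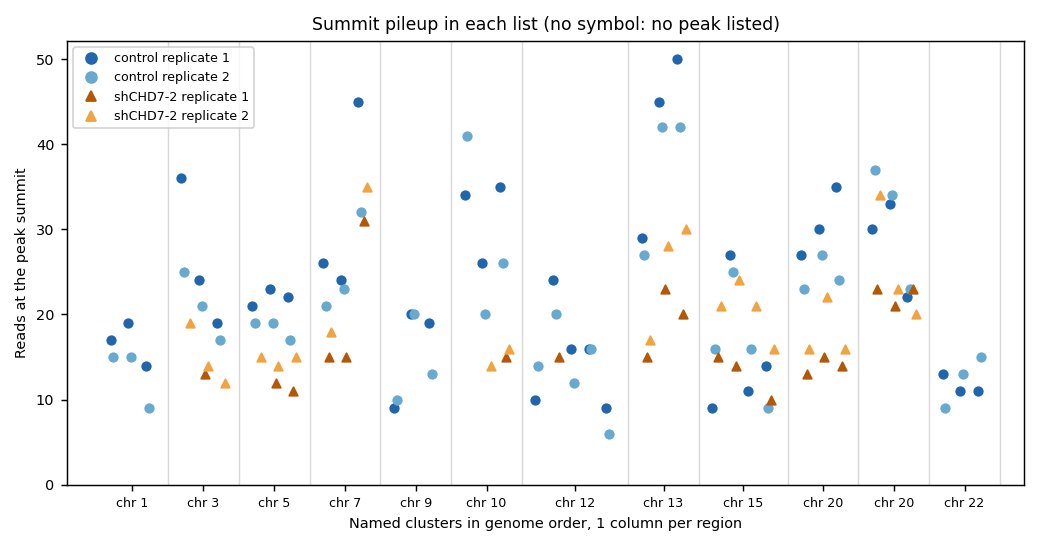
Reads at the peak summit are plotted for each region of 12 clusters, with control libraries as circles and shCHD7-2 libraries as triangles. A missing triangle means that no peak was listed. Clusters on chromosomes 1, 9 and 22 show circles only, between 9 and 20 reads, and those on chromosomes 13 and 20 show all 4 symbols at each region.

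Of the 5 fully lost clusters, the strongest spanned 6661222 to 6685304 on chromosome 1, and its mean percentile was 53.8. It held 17, 19 and 14 reads in control replicate 1 and 15, 15 and 9 in control replicate 2. Next was the only cluster on chromosome 22, from 42466512 to 42487288, with 13, 11 and 11 reads in control replicate 1 and 9, 13 and 15 reads in control replicate 2. On this chromosome 30 of the 42 other control regions were lost as well (71.4%). The cluster on chromosome 9 from 132586262 to 132601483 held 9, 20 and 19 reads and 10, 20 and 13 reads in control replicates 1 and 2. The remaining ones were both on chromosome 3. One spanned 32433011 to 32443557 with 9 to 17 reads at its control summits. The other, from 113464105 to 113465299, was the shortest of all clusters, with 3 regions of 249, 283 and 279 bp inside 1195 bp and 11 to 19 reads. All 5 lay below the 60th percentile on average.

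The fully kept clusters not yet described were on chromosome 9 from 124030004 to 124049905 and on chromosome 20 from 39945233 to 39969810. The first held 10 to 32 reads at its control summits and 11 to 23 in the shCHD7-2 lists, the second 15 to 24 and 11 to 18 reads.

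In other clusters the shCHD7-2 replicates differed from each other. All regions of the cluster on chromosome 11 from 6625166 to 6640875 were called in shCHD7-2 replicate 1, with 12, 21 and 12 reads, and none in replicate 2. Its control summits held 14, 25 and 24 reads in replicate 1 and 21, 21 and 16 reads in replicate 2. On chromosome 2 from 149401720 to 149403965, 3 regions lay within 2246 bp. The first was called in shCHD7-2 replicate 2 only, and the others in replicate 1 only. The same kind of switch was seen on chromosome 1 from 6259493 to 6266475, where 2 regions 37 bp apart were each called in a different shCHD7-2 library, with 17 reads in replicate 2 and 16 in replicate 1.

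In the remaining clusters the regions also differed in status. On chromosome 1 from 32253942 to 32264660, 2 regions were lost and 1 was called in shCHD7-2 replicate 2 alone, and the same held on chromosome 9 from 35096174 to 35116511. On chromosome 2, the cluster from 85134019 to 85153446 lost 1 region and had its other 2 in replicate 2 alone. The clusters from 133094751 to 133111333 and from 227655881 to 227666286 each kept 2 regions and lost 1, and that from 220071033 to 220095131 kept 2 and had 1 in replicate 1 alone. On chromosome 3, the clusters from 159480976 to 159483414 and from 177063402 to 177077368 had regions only in shCHD7-2 replicate 1, 1 and 2 of them. On chromosome 7 from 156735373 to 156744610, a region with 25 and 29 control reads was kept, and its weaker neighbours were lost. On chromosome 9, the cluster from 127615135 to 127631454 kept 1 region and lost 1, and the cluster from 133556552 to 133565999 kept 1 and lost 2. On chromosome 10, the cluster from 3805179 to 3825820 kept 2 regions and lost none, and the cluster from 43892563 to 43916637 kept 1 and lost 1. On chromosome 12 from 96820940 to 96840054 and on chromosome 16 from 75589107 to 75600346, 1 region was kept and 1 lost. On chromosome 20 from 17539028 to 17551461, 1 region was kept and none lost. On chromosome 8, the clusters from 141646157 to 141656514 and from 143799277 to 143821348 each lost 1 region and kept 1 and 2.

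The last cluster on chromosome 8, from 134583821 to 134588049, stood apart in its background. The local background is the read number that a peak was measured against, recovered here from its fold enrichment and p value. The library background is its most frequent value in a list. In this cluster the local background was 14.7 to 16.3 reads in control replicate 1 and 12.5 to 14.5 reads in control replicate 2, or 14.9 to 17.8 times the library background. Its summits held 41, 51 and 44 reads in control replicate 1, and yet the fold enrichment was only 2.42, 3.04 and 2.87. The first region had the lowest fold enrichment of all members in control replicate 1. In the shCHD7-2 lists the first region held 46 and 32 reads and the second held 32 reads in replicate 2, over local backgrounds of 12.4 to 13.6 reads. The third had no peak. The other members above 6 times the library background in both control lists were the 3 regions of the cluster from 159480976 on chromosome 3, the last 2 of the cluster from 177063402, and the last 2 of the strong cluster on chromosome 13.

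A local background this high was found in few clusters. It exceeded 6 times the library background in both control lists at 10 of 117 members (8.55%), which lay in 4 of the 38 clusters, and at 78 of the 8440 other control regions (0.924%). Those 10 members had similar local backgrounds within each cluster, so they are not independent and the shares are not on a like base. In the control lists the median ratio of local to library background was 2.36 and 2.63 for members, against 1.81 and 1.83 for the other control regions. Pairs had ratios close to those of clusters, 2.27 and 2.33, so a raised ratio was not particular to clusters. In the shCHD7-2 lists it was 1.53 and 1.40 against 1.33 and 1.26. Members had more reads at their summits in control, a median of 19 and 18 against 16 and 15, but lower fold enrichment, 5.61 and 5.37 against 6.45 and 6.35. Fold enrichment in pairs was again close, 5.74 and 5.77. Members were chosen for near neighbours, so the comparisons of background and fold enrichment are not independent of the rule. How far reads of neighbouring regions enter the local background was not tested. Gene annotation, sequence and copy number at these positions were not analysed here, and their part in the background was not tested.

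**Figure D5:**
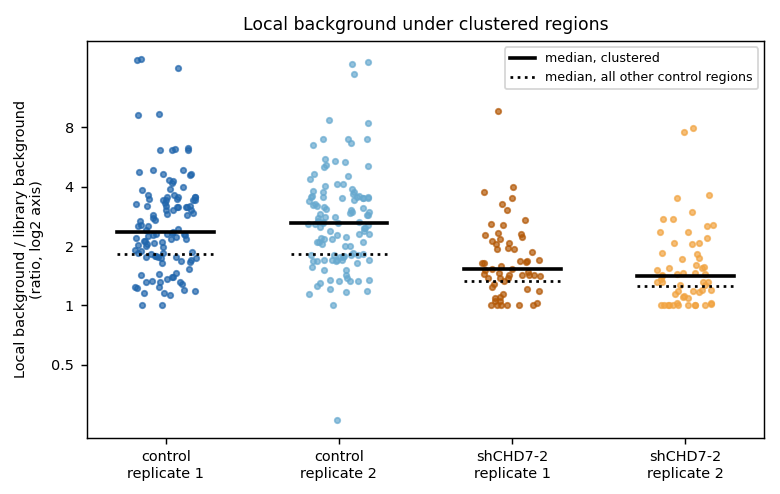
Points are members with a peak in the library, and the vertical log2 axis is the ratio of the local background to the library background. Solid lines are medians of members (2.36, 2.63, 1.53 and 1.40) and dotted lines are medians of all other control regions (1.81, 1.83, 1.33 and 1.26). The point under 0.5 in control replicate 2 is the last region of the cluster of 5 on chromosome 12. Its solution is not unique, so this low ratio is uncertain.

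Members that stayed called ranked lower in the shCHD7-2 lists than other kept regions did. The 43 members called in all 4 lists had median percentiles of 83.0 and 80.7 in the lists of control replicates 1 and 2, close to the 82.5 and 80.9 of the 3352 other such regions. In the shCHD7-2 lists their medians were 54.8 and 64.8, against 69.6 and 74.3. Their median width was 634 and 630 bp in control and 454 and 465 bp in shCHD7-2, against 713 and 680 bp and 511 and 549 bp elsewhere. Median summit reads were 25 and 22 in control and 15 and 18 in shCHD7-2 for members, and 23 and 21 and then 16 and 18 for the others. Both shCHD7-2 summits lay below both control summits at 24 of the 43 members (55.8%), against 52.4% of all 3395 regions called in the 4 lists. The opposite order was seen at 1 member, against 13.0%. At the other 18 the groups overlapped. These are reads as recovered, not scaled for depth: the library background was 0.916 and 0.843 reads in control and 1.40 and 1.62 reads in shCHD7-2.

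Cluster members that lay very close together were seldom kept. Of the 79 gaps, 16 were shorter than 1000 bp, in 13 clusters, and 29 members had a neighbour at that distance. A peak in both shCHD7-2 lists was found at 1 of these 29 (3.45%), and 15 were lost (51.7%, interval 34.4% to 68.6%). Of the other 88 members, 42 were kept (47.7%) and 27 were lost (30.7%). The close members were weaker in control, with a median percentile of 42.6 against 65.5, and narrower, with a median width of 457 bp against 703.5 bp. Their local background was 3.14 and 2.97 times that of the library in control replicates 1 and 2, against 2.22 and 2.38 times. Among pairs the contrast was smaller: regions under 1000 bp apart were kept in 75 of 266 cases (28.2%) and those farther apart in 255 of 702 (36.3%). The distance of 1000 bp was chosen after these values were seen. When the control lists were merged alone, so that no shCHD7-2 peak could join close regions, the counts of members were again 1 of 29 and 42 of 88.

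Covered length inside the spans is set in part by the rule, which takes spans with peaks in both control lists. Peaks within the spans covered 66.0 and 64.7 kb in control replicates 1 and 2 and 28.1 and 28.7 kb in shCHD7-2 replicates 1 and 2. The means were 65.4 ± 0.927 kb and 28.4 ± 0.433 kb (SD, n = 2 each), a log2 ratio of -1.20. The whole lists, which no rule selected, covered 6549 ± 498 kb for the control pair and 3544 ± 508 kb for the knockdown pair (means ± SD of 2 libraries), and the log2 ratio was -0.89. The value in the spans is a description, since the rule favours a high control length with a small spread. The number of peaks in the spans was 121 and 122 in control and 61 and 59 in shCHD7-2. Within the member regions themselves the log2 ratio was -1.19, and within the other control regions, chosen by the same 2 lists, it was -1.11. Besides the members, the spans held 4 regions, each called in 1 control library only.

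Since both control lists chose the members, clusters were also built from 1 control list and read in the other. Clusters of control replicate 1 alone held 436 regions in 137 clusters. Of these regions, 38.3% lacked a peak in control replicate 2, while 71.1% and 67.4% lacked one in the shCHD7-2 lists. For the other regions of that list the shares were 34.5%, 63.3% and 58.0%. Clusters of control replicate 2 alone held 297 regions in 94 clusters. There 27.6% were missing from control replicate 1, 64.6% from shCHD7-2 replicate 1 and 62.0% from shCHD7-2 replicate 2, against 3238 of 11580, 61.0% and 55.2% of its other regions. Averaged over both choices, clustered regions were missing from a shCHD7-2 list more often than from the held-out control list by 33.3 percentage points. With control replicate 1 as the source this difference was 31.0 points for clustered and 26.1 for other regions. With control replicate 2 it was 35.7 and 30.2 points, so most of it was shared by all regions. With equal list lengths the average for clustered regions was 17.9 points.

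The same chaining rule found fewer clusters in the knockdown. Both shCHD7-2 lists had a peak in 4367 regions, which formed 9 clusters of 3 regions each. Of these, 5 were the fully kept control clusters on chromosomes 9, 13 and 20, and 4 lay elsewhere: on chromosome 2 from 8227350 to 8235288, chromosome 8 from 129179827 to 129196067, chromosome 10 from 122175241 to 122183584 and chromosome 12 from 125401792 to 125425002. The 4367 strongest control regions formed 7 clusters with 21 regions. With as many regions as in the knockdown, the number of clusters was thus of the same order, 7 against 9.

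Clusters were unevenly placed. Chromosomes 2, 3 and 9 held 5 each and chromosome 20 held 4. On chromosome 20, 12 of 204 control regions were clustered (5.88%, interval 3.40% to 10.0%), against 1.37% in all. The interval counts single regions and is too narrow, since the 12 regions form 4 clusters. Of those 12, 10 were kept in both shCHD7-2 lists and none was lost, while 51.0% of the other control regions on this chromosome were kept and 30.7% were lost. On chromosome 3, by contrast, 1 of 15 members in 5 clusters was kept and 9 were lost. On chromosome 1, none of 9 in 3 clusters was kept and 6 were lost. Regions of a cluster are not independent, so these shares rest on few clusters and their differences were not tested. No cluster was found on 8 of 23 chromosomes (4, 6, 14, 17, 18, 19, 21 and X), which together held 2106 control regions and 105 pairs. On chromosomes 4 and 6, 0 of 447 and 0 of 503 control regions were clustered. Counted over single regions, this allows shares of up to 0.671% and 0.596%, against 1.37% in all. On chromosome X, 0 of 287 allows up to 1.05%. On chromosomes 17 and 19, which are rich in genes, 0 of 199 and 0 of 210 allow up to 1.51% and 1.43%, about the share in all chromosomes. Regions join clusters in chains of 3 or more, so limits counted over regions are too narrow. A lack of clusters was thus not resolved on any of these chromosomes.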

How the data were processed

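The authors called peaks in each library and deposited them as narrowPeak files. The submitters' processing notes name Bowtie2 2.2.5, SAMtools 1.9, MACS2 2.1.2, deepTools 3.3.0 and hg19, with no role given. Caller settings, duplicate removal and any Tn5 shift are not given in the sources used here, and each would change which peaks are listed. The deposited fold enrichment (a ratio) and the deposited -log10 p and q values belong to the authors. The deposited score, 10 times -log10 q cut to a whole number in over 99.9% of peaks, was not used. Lists ended at a -log10 q of 1.30 to 1.32. They held 13257 and 12092 peaks in control, and 7199 and 8715 in shCHD7-2, on the chromosomes used.

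Summit reads k and local background b were solved from fold = (k + 1) / (b + 1) and the Poisson p, within 0.001 in -log10 p for 100% of peaks. More than 1 pair of k and b can meet the same fold and p, and b was not held at or above the library background. A close fit therefore does not show that the pair is right. The background came out below that of the library at 27 and 34 control peaks, 1 of them in a member. Reads and background at these peaks are uncertain. Files give no read totals. The library background measures relative depth only if reads were extended alike.

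The members and lists were chosen with earlier results of these data known. Named clusters were the 8 with the most regions (ties by mean percentile), the first 3 fully kept, the first 3 fully lost and the shortest of at least 5 regions; all others are given by position. No test was made: the rule uses the control lists, and an exact permutation test of 2 against 2 libraries cannot go below p = 0.333. Intervals are Wilson intervals at 95%, the limit for a count of 0 is 3 counts, and both cover counting error only. Both treat regions as independent, although the regions of a cluster are chosen together. Scripts were tested on simulated data. Alternatives were other gaps, chain sizes, thresholds, list lengths and overlaps, strata of control rank, omission of each library, a replicate block and, added after seeing the data, a merge of the control lists alone. No gene annotation or genome of the build hg19 was used, so genes and sequences are not analysed here. Python 3.11.15 was used with pandas 2.3.3, NumPy 2.4.6, SciPy 1.17.1 and, for plots, matplotlib 3.10.9.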

Additional observations from a re-analysis of the deposited data

How the results depend on the processing

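The number of clusters depended on how they were defined. Each alternative took its spans from control peaks, so a lower covered length in shCHD7-2 under it supports nothing. With a gap of 5000 bp there were 6 clusters with 18 regions, a log2 ratio of covered length of -1.46 and a knockdown minus held-out control difference of 41.2 percentage points. With a gap of 25000 bp there were 147 clusters with 484 regions. Chains of 2 or more gave 522 and 1085 (log2 ratio -1.24), and chains of 5 or more left 1 cluster of 5 regions, with 80.0% lost, a gap to other control regions of 45.6 points and a log2 ratio of -3.07. A -log10 q of at least 5 left 11 clusters with 33 regions, a gap of -13.1 points, a log2 ratio of -1.38 and a held-out difference of 37.7. Equal list lengths of 7199 peaks also left 11 and 33, with 12.1% lost, a gap of -11.6 points, a log2 ratio of -0.83 and a held-out difference of 17.9. Equal lengths drop the weakest control peaks by design, and for the other settings the cause was not tested. Requiring 50% of the shorter peak to overlap gave a log2 ratio of -1.12, and merging the control lists alone, added after seeing the data, gave -1.23.

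The gap in the share lost, 1.48 points higher in clusters (interval -6.70 to 10.5), was therefore not fixed in sign, and averaged over strata of control rank it was -0.47. Leaving out each library gave from 38 to 145 clusters, from 117 to 462 regions, from 49.6% to 59.96% lost, gaps from -1.01 to 9.93 points and log2 ratios from -1.74 to -1.19. Without control replicate 1 there were 104 clusters with 330 regions and 52.4% lost, and without control replicate 2 there were 145 with 462 and 59.96% lost, since a single list then chooses members. Without 1 shCHD7-2 library, lost means no peak in the single shCHD7-2 list that remains. The share lost then cannot fall, and it was 49.6% in both cases. Blocked on replicate number, the log2 ratio was -1.20. The labels do not say that the numbers pair libraries. The number of lost regions was the same in 9 of the 12 named clusters at the stricter q and in all 12 with equal list lengths. This check kept the clusters of the main rule and only removed shCHD7-2 peaks, so fully lost clusters could not change. At equal lengths the list of shCHD7-2 replicate 1 stayed whole. The sameness was therefore partly fixed in advance.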
